A study of Mus musculus with 4 samples.

Results

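Heat shock and chaperone genes were followed in single cells sorted from mouse aortas. The set held 10 of the 18767 genes in the count table, taken by name. Of these, 6 were counted as inducible (Hspa1a, Hspa1b, Dnajb1, Hsph1, Hspb1 and Hsp90aa1) and 4 as constitutive (Hspa8, Hsp90ab1, Hspd1 and Hspe1). All 10 had counts in each of the 4 libraries.

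The study asked how loss of the Notch ligand Jag1 in endothelial cells (EC) changes the aortic endothelium. All mice were C57BL/6J males 1.5 to 3 months old. They carried floxed Jag1 alleles (Jag1 fl/fl) and received tamoxifen at 2 mg per day for 5 days. Libraries s001 and s002 were labelled Jag1 ECKO, from mice that also carried Cdh5-CreERT2, a tamoxifen-activated Cre driven by an endothelial promoter. Libraries s003 and s004 were labelled Jag1 ECWT, from mice without the Cre. Aortas were digested with enzymes, and live CD31+ CD45- cells were sorted into plates and sequenced by SORT-seq, which counts each transcript once at its 3′ end. The number of animals behind a library is not given in the sources used here, so p-values measure the spread between these libraries, which may be technical.

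Cells with more than 1200 genes were kept, which left 202, 236, 140 and 246 cells in s001 to s004, 824 of 991 in all. Total counts per library ran from 859280 to 1779042. Jag1 itself went against its label, at 158 and 70.8 CPM (counts scaled to a library total of 1000000) in s001 and s002 and 32.6 and 26.1 CPM in s003 and s004 (edgeR log2 fold change 1.96, SE 0.37, adjusted p = 0.428). A 3′ count checks a deletion only if it lies in the deleted part, which the sources used here do not place. The libraries are therefore called by their labels, with no genotype read from them. These data do not settle whether the labels were exchanged, which would turn the sign of every difference between them. All 10 endothelial marker genes were detected, and their summed level was 9471 to 11023 CPM per library. Library s001 stood apart in other genes: 22 immediate early genes summed to 4013 CPM against 2044 to 2366 CPM in the others, and 10 vascular smooth muscle (VSMC) markers to 3515 CPM against 439 to 1605 CPM. Red cell genes summed to 84.6 CPM in s001 and to at most 1.34 CPM in the others. Its mitochondrial share was the highest (5.06% against 3.38% to 4.68%) and its median depth the lowest (4212 counts per cell against 5216 to 6517.5). The 10 fibroblast markers summed to 1682 to 2687 CPM, lowest in s001, and the leukocyte list to at most 12.8 CPM. Results that rest on s001 are given with and without it.

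Heat shock proteins keep other proteins folded. HSP70 chaperones bind exposed stretches of unfolded protein with the help of J-domain proteins and nucleotide exchange factors, HSP90 chaperones finish the folding of kinases and receptors, and HSP60 with HSP10 forms a closed folding chamber inside mitochondria. Constitutive members are those made without stress, which does not mean that stress leaves their levels unchanged. Inducible members are raised when heat shock factor 1, the protein of Hsf1, binds heat shock elements, repeats of the unit GAA and its reverse complement TTC, in their promoters. Endothelial cells meet heat, oxidants and flow, and tissue digestion is a known trigger of these genes in single-cell work.

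The promoters show how members of a pair are related in the genome. RefSeq promoter sequence (GRCm38.p6) was held for 7 of the 10 members, and not for Hspa8, Hsp90aa1 and Hsp90ab1. The pair of genes for inducible HSP70 lies on the minus strand of chromosome 17, 9951 bases apart, each with 1 exon. Hspa1a spans chr17:34969190-34972156 and Hspa1b spans chr17:34956436-34959238 (GENCODE, GRCm38). The 250 bases before each start site are printed 5′ to 3′ on the gene's strand, with the motif GAANNTTC in capitals, because they are nearly the same sequence.
Hspa1a, chr17:34972157-34972406: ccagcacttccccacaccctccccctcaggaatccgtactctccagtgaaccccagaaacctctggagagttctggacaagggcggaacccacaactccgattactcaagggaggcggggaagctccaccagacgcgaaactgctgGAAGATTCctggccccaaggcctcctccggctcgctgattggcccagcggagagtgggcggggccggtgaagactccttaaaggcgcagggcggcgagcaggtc
Hspa1b, chr17:34959239-34959488: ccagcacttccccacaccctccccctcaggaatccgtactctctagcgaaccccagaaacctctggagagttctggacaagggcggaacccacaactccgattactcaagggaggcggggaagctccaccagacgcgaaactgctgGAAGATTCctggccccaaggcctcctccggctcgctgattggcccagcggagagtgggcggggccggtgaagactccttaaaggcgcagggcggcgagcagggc
These promoters were identical at 247 of 250 bases (98.8%), and both held 1 GAANNTTC at the same place, from -104 to -97 relative to the start. The transcripts differ more where SORT-seq reads them. Of all 75-base windows (the read length), 52.7% of the Hspa1a transcript and 55.8% of the Hspa1b transcript occur in the other, but in the last 400 bases 0 of 326 windows do in either.

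Hspb1, which encodes the small heat shock protein HSP27, lies on the plus strand at chr5:135887919-135889563, with 3 exons. Its promoter is printed because several of the comparisons turn on Hspb1, and it held GAANNTTC at 2 places, again in capitals.
Hspb1, chr5:135887669-135887918: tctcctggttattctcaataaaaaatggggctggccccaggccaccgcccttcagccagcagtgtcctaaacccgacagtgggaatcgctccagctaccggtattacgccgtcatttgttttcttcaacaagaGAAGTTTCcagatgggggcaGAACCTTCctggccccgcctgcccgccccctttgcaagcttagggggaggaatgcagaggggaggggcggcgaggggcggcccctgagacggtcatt
Hspd1 and Hspe1 encode the HSP60 and HSP10 subunits and share a promoter on chromosome 1. Hspd1 spans chr1:55077835-55088243 on the minus strand and Hspe1 spans chr1:55088132-55091307 on the plus strand, so that their annotated first exons overlap by 112 bases. One of the RefSeq start sites of Hspd1 has 215 bases of its window in common with that of Hspe1. This stretch is printed on the Hspe1 strand, with its run of heat shock units in capitals.
Hspd1 and Hspe1, chr1:55087933-55088147: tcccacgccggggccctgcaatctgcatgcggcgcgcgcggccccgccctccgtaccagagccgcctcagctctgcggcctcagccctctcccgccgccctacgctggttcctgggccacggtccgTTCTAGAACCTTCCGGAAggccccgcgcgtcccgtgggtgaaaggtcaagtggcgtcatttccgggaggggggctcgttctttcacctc
The capitals hold the motif GAANNTTCNNGAA of 3 units at 2 overlapping places on opposite strands. Counted on both strands, GAANNTTCNNGAA was in 0.466% of 32851 promoter windows of the same kind, GAANNTTC in 6.69% and TTCNNGAA in 7.17%, and the first motif contains both others. Hsph1 held 1 TTCNNGAA, and none of these letters was found in the windows of Dnajb1. The motif of 3 units was thus in a window of Hspd1 and of Hspe1, counted as constitutive. It was in no window held for an inducible member, so the split does not follow these letters. A match of letters is a description and not a measured binding site.

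The constitutive cytosolic chaperones Hsp90ab1 and Hspa8 were the most abundant members. Hsp90ab1, the constitutive HSP90, stood at 1008, 915, 1043 and 959 CPM in s001 to s004, and ranked 104 of 18767 genes by its mean level. Hspa8, the constitutive HSP70, stood at 484, 419, 401 and 423 CPM and ranked 272. These were also the steadiest members over the libraries, with a coefficient of variation of 5.69% for Hsp90ab1 and 8.37% for Hspa8. This value includes counting error, which is smaller for abundant members, and Hspe1 came next at 9.36%. Mitochondrial Hspe1 stood at 103, 101, 83.8 and 91.8 CPM, a range of 1.23-fold. Its partner Hspd1 stood at 47.2, 74.8, 67.5 and 53.6 CPM, and was lowest in s001. The ratio of Hspd1 to Hspe1 was 0.457, 0.743, 0.806 and 0.584, from 48, 133, 58 and 80 counts of Hspd1, and whether it varied beyond counting error was not tested.

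The inducible members fell into abundant and scarce ones. Hspb1 stood at 376, 248, 255 and 168 CPM, highest in s001 and lowest in s004, a span of 2.24-fold. Hsp90aa1, the inducible HSP90, stood at 187, 211, 180 and 235 CPM. The other 4 inducible members, called strictly inducible here, were low in every library. Hspa1a stood at 70.9, 29.8, 48.9 and 40.9 CPM, from 72, 53, 42 and 61 counts. Hspa1b stood at 73.8, 29.8, 55.9 and 38.9 CPM, from 75, 53, 48 and 58 counts. Both inducible HSP70 genes were highest in s001 and lowest in s002, which share a label, and s003 and s004 lay between them. The exact Poisson interval (95%, counting error only) of Hspa1a was 55.4 to 89.2 CPM in s001 and 22.3 to 39.0 CPM in s002. Dnajb1, a J-domain partner of HSP70, stood at 46.3, 33.7, 30.3 and 33.5 CPM. Hsph1, the HSP110 exchange factor, stood at 27.6, 15.7, 15.1 and 22.8 CPM and was the lowest member, at rank 6656.

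**Figure D1:**
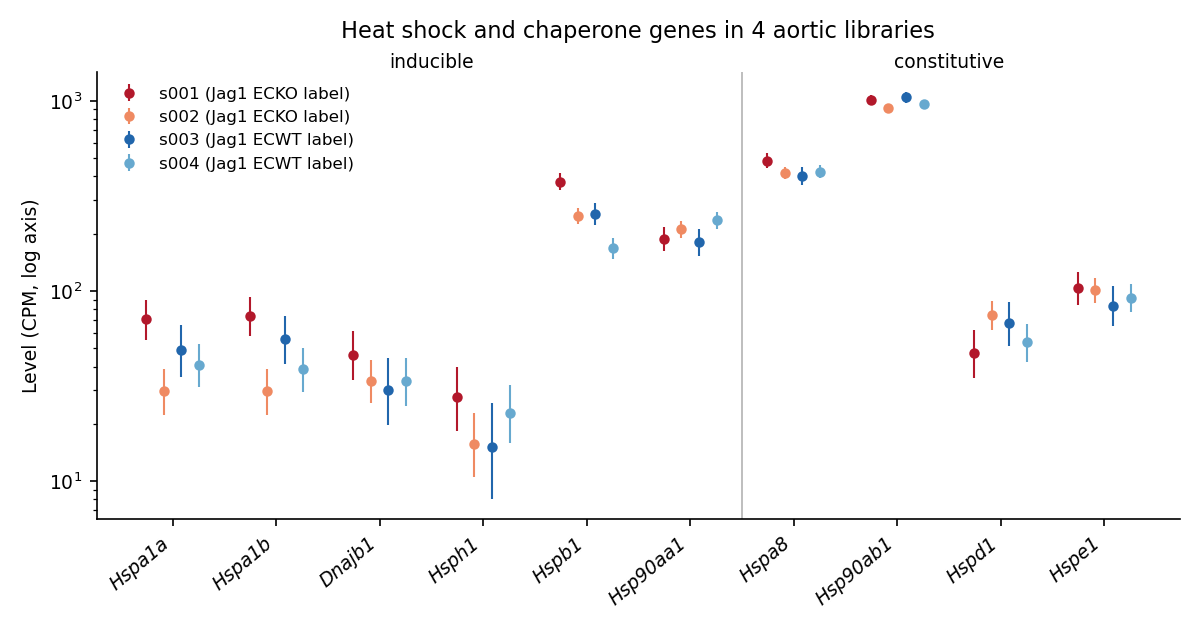
Level of each member in each library in CPM on a log axis, with exact 95% Poisson intervals that cover counting error only. Hsp90ab1 and Hspa8 sit highest and closest together, whereas Hspa1a and Hspa1b range from 29.8 CPM in s002 to 70.9 and 73.8 CPM in s001.

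Because each transcript gives 1 count whatever its length, the members can be set in order. By mean level the order was Hsp90ab1, Hspa8, Hspb1, Hsp90aa1, Hspe1, Hspd1, Hspa1b, Hspa1a, Dnajb1 and Hsph1. The ranges over libraries overlapped between Hspb1 and Hsp90aa1, between Hspd1 and Hspa1b, between Hspa1b and Hspa1a and between Hspa1a and Dnajb1, so these neighbours were not set apart. Processed copies of several of these genes exist in the mouse genome, and how the counting treated reads that fit a copy was not tested.

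Inducible genes made up the smaller part of the chaperone counts in every library. Their ratio to the constitutive members was 0.476, 0.377, 0.367 and 0.353 in s001 to s004, 0.39 ± 0.056 (SD, n = 4). The values of s001 and s002 (labelled Jag1 ECKO) exceeded those of s003 and s004, by 0.23 in mean log2 ratio (two-sided exact permutation test, p = 0.33, the smallest that 2 against 2 libraries can give). Without s001 the difference was 0.07, and without s002 it was 0.40. Much of the inducible count was Hspb1. Without Hspb1 the ratio was 0.247, 0.212, 0.207 and 0.243, and the labels overlapped. Over the strictly inducible genes alone it was 0.133, 0.0723, 0.0941 and 0.0891, again with s001 highest and s002 lowest.

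Within the chaperone families the inducible copy was also the minor one. Hspa1a and Hspa1b together gave 0.299, 0.142, 0.261 and 0.189 counts for each count of Hspa8. Hsp90aa1 gave 0.186, 0.231, 0.173 and 0.245 for each count of Hsp90ab1. The families did not follow each other across libraries: s001 and s003 had the higher HSP70 ratios, and s002 and s004 the higher HSP90 ratios. Hspa1a and Hspa1b, with near-identical promoters, had nearly equal counts, at an Hspa1a to Hspa1b ratio of 0.96, 1, 0.875 and 1.05. Hspd1 and Hspe1 share promoter sequence as well, at a ratio of 0.457, 0.743, 0.806 and 0.584. A link between promoter and level was not tested, nor was the counting of reads that fit both Hspa1a and Hspa1b.

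**Figure D2:**
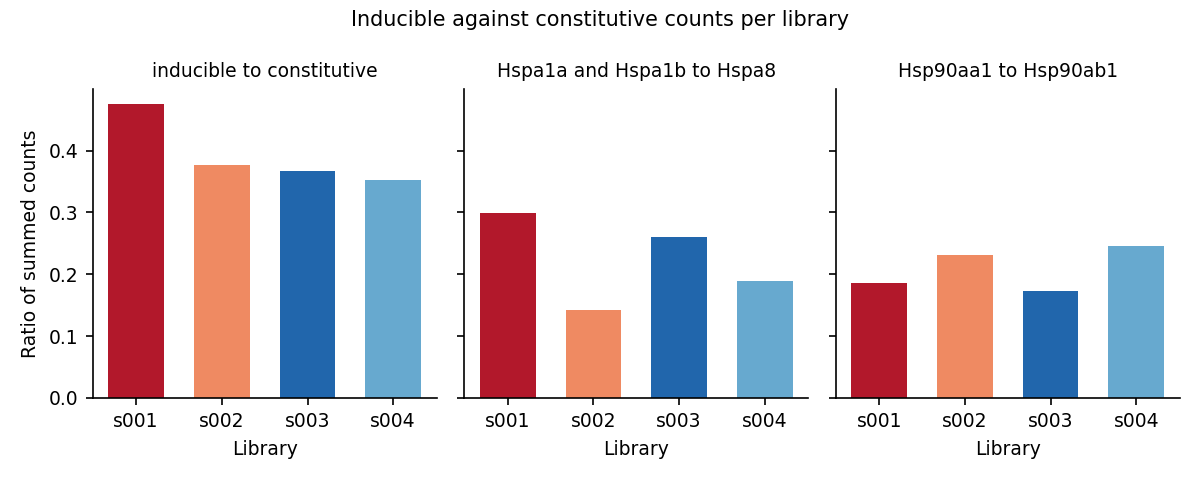
Ratio of summed inducible to summed constitutive counts in each library, for all members, for HSP70 and for HSP90 (bars from 0, no error bars). The ratio of all members is 0.476 in s001 and 0.353 to 0.377 in the others, while the HSP70 and HSP90 ratios rank the libraries differently.

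No member differed between the labels at an adjusted p of 0.05. In edgeR's quasi-likelihood test, 0 of the 10 members and 0 of 9730 genes tested passed (0% of genes called), and 465 genes (4.78%) had an unadjusted p below 0.05. DESeq2 passed 2 genes (0.0206%), neither of them a member, and 142 genes were below 0.05 unadjusted. Among members only Hspb1 had an unadjusted p below 0.05 (log2 fold change 0.58, SE 0.24, edgeR adjusted p = 0.900). Of the 10 members, 8 were above 0, with a median log2 fold change of 0.12 beside -0.001 over all genes tested. With each cell thinned to 2500 counts, only Hspb1, Hspa8 and Hspd1 were above 0.

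The inducible HSP70 genes had small differences with wide errors between labels. For Hspa1a the log2 fold change was 0.13 (SE 0.37), and for Hspa1b 0.11 (SE 0.39). These values turned to -0.51 and -0.56 without s001, and to 0.64 and 0.65 without s002. In cells thinned to equal depth, with all 4 libraries, they were -0.12 and -0.20, so no direction was fixed for either gene. The constitutive members were more closely bounded, at 0.14 (SE 0.17) for Hspa8 and -0.04 (SE 0.16) for Hsp90ab1. Dnajb1 was at 0.31 (SE 0.27), Hspe1 at 0.23 (SE 0.19), Hsph1 at 0.11 (SE 0.40), Hspd1 at 0.08 (SE 0.29) and Hsp90aa1 at -0.05 (SE 0.21).

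Levels scaled by TMM did not overlap between labels for 5 of the 10 members, beside 36.1% of all genes tested. Of these, 4 were higher in the libraries labelled Jag1 ECKO (Dnajb1, Hspb1, Hspa8 and Hspe1; background 17.8%) and Hsp90ab1 was lower (background 18.2%). On CPM by library totals, the scale used for the levels above, 2 members did not overlap (Dnajb1 and Hspe1, both higher), beside 35.4% of all genes. For Hspb1 the scaled values were 370, 263, 250 and 174 CPM. The gap between s002 and s003 was small beside the gap within either label. Hspb1 stood at 294, 241, 249 and 145 CPM in endothelial marker cells alone (log2 fold change 0.48, SE 0.24). Over all kept cells, Hspb1 was at 0.32 without s001 and at 0.82 without s002. In the latter fit Hspb1 was past the threshold (edgeR adjusted p = 0.00141), the only member called, beside 4.23% of 9851 genes tested (417 genes), but s001 then stood alone for its label and was assumed to vary as s003 and s004 did. Immediate early genes and VSMC markers were highest in s001 as well, and their part in the Hspb1 difference was not tested.

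**Figure D3:**
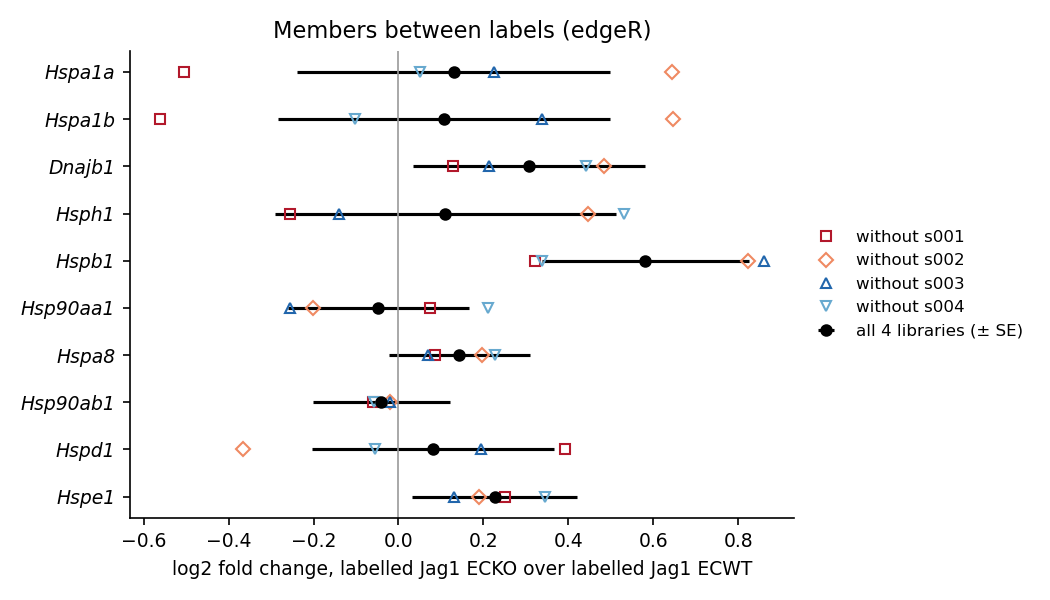
Log2 fold change of each member between labels (edgeR), with all 4 libraries (black, ± SE) and with each library left out (open symbols). Hspa1a and Hspa1b lie at -0.51 and -0.56 without s001 and at 0.64 and 0.65 without s002, whereas Hspb1 stays above 0 in all 5 fits.

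The heat shock factors and the wider chaperone network did not pass between labels either. Hsf1 stood at 38.4, 30.9, 69.8 and 35.5 CPM (log2 fold change -0.55, SE 0.33), with s003 alone high. Hsf2 stood at 8.86, 8.43, 4.66 and 6.03 CPM, from 4 to 15 counts. In 5 lists of 91 further chaperone genes, 83 were tested and 0 passed. Below an unadjusted p of 0.05 were 3 of the 83, no larger a share than the 4.78% over all genes. These were Hspb6, a small heat shock protein of muscle (1.08, SE 0.37), Clpb, a disaggregase of mitochondria (1.03, SE 0.40), and Pdia4, a disulfide isomerase of the endoplasmic reticulum (-0.70, SE 0.30). The median log2 fold change was 0.16 over 16 inducible cochaperones, 0.08 over 29 partners of HSP70 and HSP90, -0.01 over 13 chaperonin genes, -0.01 over 15 chaperones of the endoplasmic reticulum and -0.04 over 10 of mitochondria. Summed levels over the libraries were 1537 to 1761 CPM for the inducible cochaperones, 1670 to 1827 CPM for the partners, 1053 to 1119 CPM for the chaperonin, 2481 to 2792 CPM for the endoplasmic reticulum and 378 to 384 CPM for the mitochondrial list.

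Each of the strictly inducible genes was sparse over cells. Before thinning, a count of at least 1 of the 4 was found in 50%, 47.5%, 52.1% and 45.1% of cells in s001 to s004. To compare cells of unequal depth, each was thinned to 2500 counts, which kept 189, 234, 132 and 237 cells and left out 13, 2, 8 and 9 shallower ones. A count of Hspa1a or Hspa1b was found in 22.2%, 9.40%, 24.2% and 14.8% of thinned cells. Unthinned, such a count was found in 32.0% of the 824 cells. No cell type is known to lack these genes, so no background share could be set beside these values. Over the 4 strictly inducible genes, 582 of 792 thinned cells had 0 counts, 160 had 1, 39 had 2 and 11 had 3 or more. The highest had 5, which 3 cells reached, 1 each in s001, s003 and s004. These 3 cells all had more endothelial than fibroblast and VSMC marker counts.

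Nearly all cells had a count of at least 1 constitutive chaperone. Only 4.04% of thinned cells had no count of the 4 constitutive members, and the median of their sum was 3 counts. Hsp90ab1 alone was counted in 91.5%, 84.2%, 86.4% and 85.7% of thinned cells. Hspa8 was counted in 60.3% to 66.7%, Hspe1 in 17.5% to 20.7% and Hspd1 in 8.44% to 15.8%. A cell held counts of 3 of the 10 members in the median, and 9 cells held none.

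Hspb1 was spread unevenly over cells. Its variance over mean in thinned cells was 2.35, 1.59, 1.80 and 2.15 in s001 to s004, where 1 is what chance counting alone would give. It was the highest of the members in s001 and s004, while Hsph1 was higher in s002 (1.64) and Hspa1b in s003 (1.86). Those values rest on few cells: 7 held Hsph1, with at most 3 counts, and 18 held Hspa1b, with at most 5. Mean counts differ between members and also move this ratio, so the order is a description. For Hsp90ab1 the ratio was 1.16 to 1.41, and for Hspa8 it was 1.09 to 1.56. Hspa1a and Hspa1b summed gave 1.72, 1.14, 1.5 and 1.34, again highest in s001 and lowest in s002. Fewer cells held them than an even spread of the same mean would give, at 22.2% against 28.3% in s001 and 9.40% against 10.1% in s002. Hspa1b was more uneven than Hspa1a, at 1.26 to 1.86 against 0.953 to 1.20. In s001, 14 of 189 thinned cells had 3 or more counts of Hspb1, and the highest had 12. These ratios take endothelial, fibroblast and VSMC marker cells together, and they were not computed in endothelial ones alone.

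**Figure D4:**
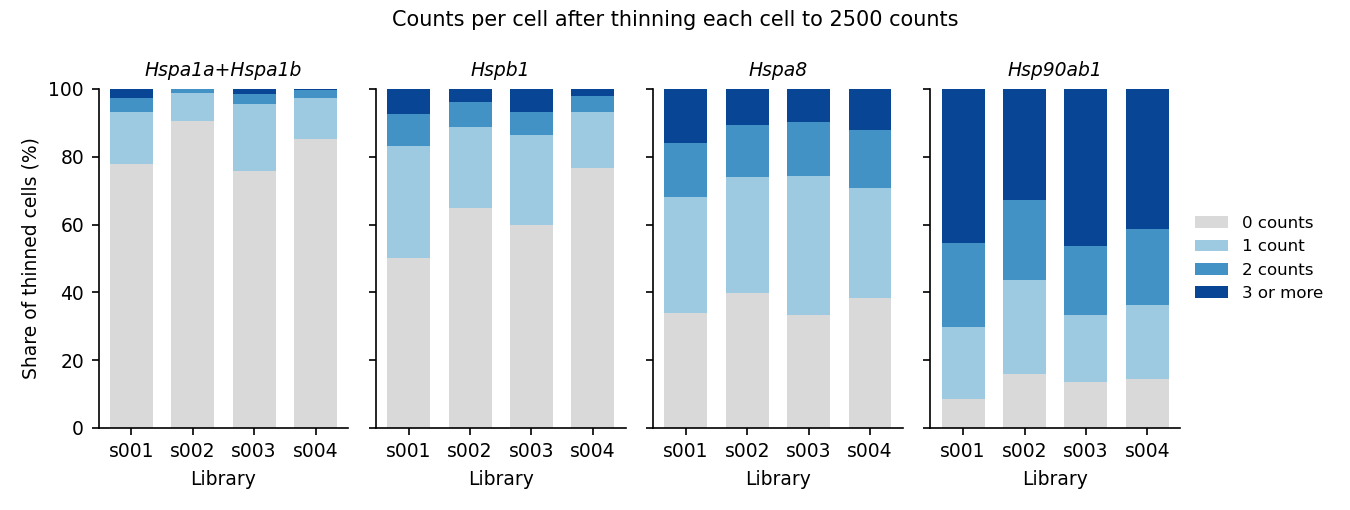
Share of thinned cells with 0, 1, 2 or 3 or more counts in each library, in % of cells, for inducible HSP70 (Hspa1a and Hspa1b summed), Hspb1, Hspa8 and Hsp90ab1. Hspa1a and Hspa1b are at 0 in 75.8% to 90.6% of cells, and Hsp90ab1 is at 0 in 8.47% to 15.8%.

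Members hardly varied together from cell to cell. Within libraries, the mean Pearson correlation of log2(count + 1) had a median of 0.002 over 15 inducible pairs and -0.02 over 6 constitutive pairs, and lay between -0.10 and 0.13 over all pairs. Cells of a library share its preparation, and counts near 0 hold any correlation down. Hspa1a and Hspa1b were both counted in 11 thinned cells, where 7.17 would be met if they were independent within libraries. The inducible sum had a mean correlation of 0.06 with the constitutive sum. With the summed immediate early genes its correlation was 0.16, 0.07, -0.01 and -0.05 in s001 to s004, highest in s001 and of no fixed sign. For the sum of the strictly inducible genes it was 0.04, -0.03, -0.09 and 0.04. Hspb1 and Hsp90aa1 gave 1292 and 1072 of the 3112 inducible counts before thinning.

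The genes most like each sum over cells were only weakly like it. Among 2037 genes searched over 4 libraries, the 10 highest for the inducible sum, with Hspb1 in it, were Sparcl1 (mean r 0.17), Dstn, Col4a2, Mylk, Myh11, Myl9, Coro1c, Sorbs2, Eif3a and Cald1. Of these, Mylk, Myh11 and Myl9 were on the VSMC marker list. Myh11 and Myl9 had a value of exactly 0 in s003, where a correlation may not have been defined, and this value entered their mean. For the constitutive sum they were Rps3 (mean r 0.16), Rpl4, Ncor1, Dcn, Ybx1, Prkcdbp, Rab18, Ifitm3, Tagln2 and Ifi47. These correlations are given as a description.

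Immediate early genes such as Fos, Jun and Egr1 are switched on within minutes of tissue digestion, so members were compared between the cells highest and lowest in 22 of them. In each library 1 in 3 thinned cells was taken from either end, 264 cells in each group. Of the 10 members, 5 had enough counts to be tested, and 0 passed, beside 0.601% of 2993 genes tested (0.535% higher and 0.0668% lower in the high cells). The 18 genes that passed included the 12 tested genes that cut the groups, which is no finding. Below an unadjusted p of 0.05 were 6.08% of genes and none of the members. DESeq2 passed 15 genes (0.501%, with 1.57% below 0.05 unadjusted). Hspb1 had 70, 37, 35 and 32 counts in the high cells of s001 to s004 and 41, 39, 20 and 31 in the low cells, at equal depth. The high cells had more in s001 and s003, and nearly equal numbers in s002 and s004 (log2 fold change 0.38, SE 0.20, edgeR adjusted p = 0.863). The log2 fold change was 0.19 without s001 and 0.55 without s002. The other tested members were closer to 0, at 0.02 (SE 0.14) for Hspa8, -0.08 (SE 0.19) for Hsp90aa1, -0.12 (SE 0.11) for Hsp90ab1 and -0.14 (SE 0.29) for Hspe1.

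The strictly inducible genes and Hspd1 were too scarce for this test. Hspa1b had 15, 3, 12 and 9 counts in the high cells and 9, 4, 3 and 4 in the low cells. Hspa1a, its neighbour, was at 63.5, 10.3, 27.3 and 45.6 CPM in the high cells and 50.8, 25.6, 72.7 and 30.4 CPM in the low cells. The pair did not point the same way in s003. Over all libraries Dnajb1 had 18 counts in the high cells and 24 in the low, Hsph1 had 14 and 20, and Hspd1 had 30 and 35. In the wider lists 37 genes were tested and 0 passed. Manf, a factor of the endoplasmic reticulum, was among those below an unadjusted p of 0.05 (-0.88, SE 0.32). The ribosomal RNA gene Rn45s was lower in the high cells (-0.40, SE 0.07, edgeR adjusted p = 0.00351). Its counts are part of the 2500 to which each cell was thinned. A cell with more Rn45s thus has fewer counts left for immediate early genes, so the cut itself favours this direction. How much of the Rn45s difference comes from the cut was not tested.

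Hspb1 was higher in the cells with more fibroblast and VSMC than EC marker counts. There were 48 such cells, 9, 15, 6 and 18 in s001 to s004, against 776 with at least as many EC marker counts. Hspb1 stood at 1482, 314, 365 and 464 CPM in them and at 294, 241, 249 and 145 CPM in the EC marker cells. The groups differed in the same direction in 4 of 4 libraries (log2 fold change 1.31, SE 0.34, edgeR adjusted p = 0.0271). Of the 9 members tested, Hspb1 was the only one to pass, beside 2.89% of 6704 genes that passed in this direction and 2.1% in the other. In all 335 genes (5%) passed in edgeR and 259 (3.86%) in DESeq2, which is the background for this comparison, with 13.9% below an unadjusted p of 0.05. The call was lost without s001, where the log2 fold change was 0.87 (edgeR adjusted p = 0.164), without s002 (1.61, adjusted p = 0.0933) and without s004 (1.11, adjusted p = 0.183). Of these cells 20 lay within 2-fold of the marker threshold. They came through a sort for CD31+, and whether some were doublets was not tested.

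Most of these Hspb1 counts came from cells with VSMC markers, a split made after the values were seen. In the 16 cells with more VSMC than fibroblast marker counts, Hspb1 stood at 1711, 497, 482 and 1087 CPM, from 6, 4, 1 and 5 cells and 100, 35, 3 and 43 counts. In the 32 others it stood at 342, 191, 347 and 90.8 CPM, close to the EC marker cells. Against EC marker cells the log2 fold change was 1.83 (SE 0.47, edgeR adjusted p = 0.00366) in the VSMC marker cells, where 6.77% of 6087 genes passed, and -0.27 (SE 0.40, adjusted p = 0.980) in the fibroblast marker cells. The call in VSMC marker cells was also lost without s001 (1.47, edgeR adjusted p = 0.221), without s002 (2.04, adjusted p = 0.0694) and without s004 (1.37, adjusted p = 0.348), and it was kept without s003, which gave 1 cell (2.17, adjusted p = 1.58e-09, with 11% of genes passing). The difference between both was not tested. Hsp90aa1 also passed in the VSMC marker cells without s003 (0.98, SE 0.35, edgeR adjusted p = 0.0486), but not with all libraries (0.74, SE 0.44, adjusted p = 0.412). HSP27 is known as a regulator of actin in smooth muscle.

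**Figure D5:**
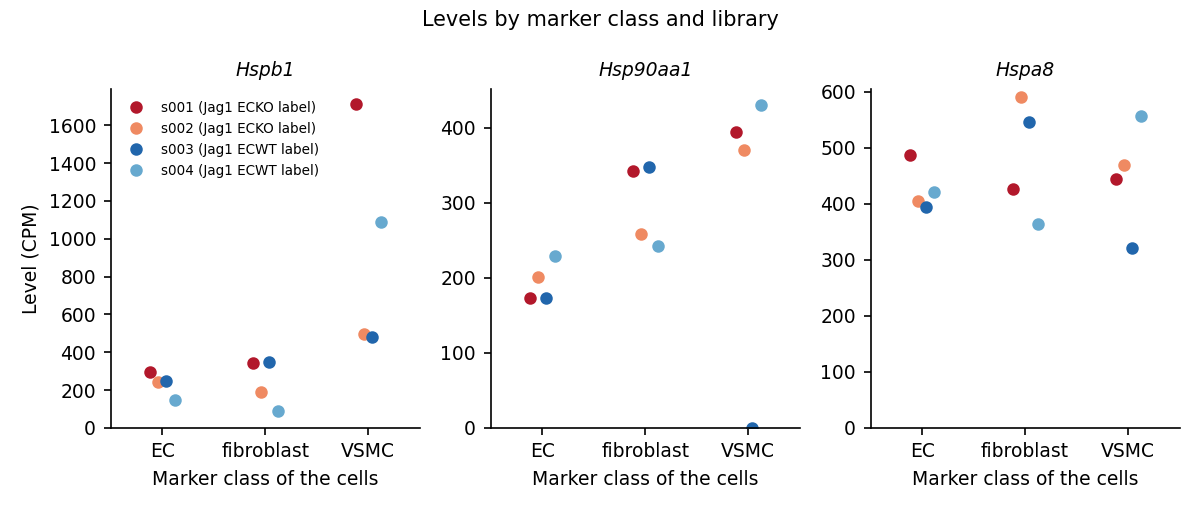
Level in CPM of Hspb1, Hsp90aa1 and Hspa8 in cells grouped by their marker counts, with 1 point per library and no error bars; the VSMC group of s003 is 1 cell. Hspb1 is at 482 to 1711 CPM in VSMC marker cells and at 145 to 294 CPM in EC marker cells, while Hspa8 overlaps between groups.

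The other members did not pass between the 48 cells and the EC marker cells. Hsp90aa1 stood at 385, 303, 301 and 313 CPM in the 48 cells and at 172, 201, 174 and 229 CPM in the EC marker cells, higher in 4 of 4 libraries (log2 fold change 0.77, SE 0.27, edgeR adjusted p = 0.132). Hspa8 and Hsp90ab1 were both at 0.21 (SE 0.25 and 0.26), Hspe1 at 0.34 (SE 0.31), Hspa1a at 0.56 (SE 0.48), Hspa1b at 0.06 (SE 0.49), Hspd1 at -0.10 (SE 0.40) and Dnajb1 at -0.20 (SE 0.63). The median over members was 0.21, beside -0.05 over all genes tested. Hsph1 had too few counts to be tested. For no member did the difference from EC marker cells itself pass a test between labels (edgeR interaction; the member with the lowest p was Hspa1b, adjusted p = 1.00).

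Of 71 tested genes in the wider lists 3 were higher in the 48 cells and 0 lower, beside 2.89% of all genes called higher. All 3 were among the 12 tested inducible cochaperones, and the other 4 lists had 0. These were Cryab (1.90, SE 0.48, edgeR adjusted p = 0.0234) and Hspb8 (1.70, SE 0.48, adjusted p = 0.0444), both small heat shock proteins, and Serpinh1, the collagen chaperone HSP47 (1.17, SE 0.30, adjusted p = 0.0254). Of 17 tested immediate early genes, 6 were higher in the same cells and 0 lower. Among the 6 were Fos at 3.04 (SE 0.30), Atf3 at 3.01 (SE 0.47) and Egr1 at 1.70 (SE 0.28), and Jun did not pass (0.34, SE 0.27, edgeR adjusted p = 0.698). The 48 cells were also deeper in s001, s002 and s003, with medians of 6487, 9827 and 6940.5 counts against 4123, 6419 and 5460 in EC marker cells, and shallower in s004 (4440 against 5275). The mitochondrial share of counts was 6.84%, 4.2%, 2.03% and 9.85% in the VSMC marker cells and 4.95%, 3.4%, 4.49% and 4.48% in the EC marker cells, so s001 and s004 were highest in the VSMC marker cells both in this share and in Hspb1. The part of immediate early induction, of depth and of the mitochondrial share in the Hspb1 difference was not tested.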

How the data were processed

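SORT-seq libraries were made from sorted aortic cells in 384-well plates. The authors aligned the reads with STAR to GRCm38 and deposited expected counts per gene and cell, which are UMI numbers corrected for chance repeats (whole UMIs to within 4.1e-12 for 4096 UMIs). The submitters' processing notes also name Seurat 3.1. Which STAR version and which counter were used is not given in the sources used here.

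Cells with more than 1200 genes were kept. No doublet caller was run. Of 355 well barcodes, 278 occur in more than 1 library, since plates share a barcode set. Counts were rounded, summed per library (or library and cell group, with library as a block) and tested with edgeR 4.0.16 in R 4.3.3 (TMM, filterByExpr, quasi-likelihood test, Benjamini-Hochberg over all genes tested). DESeq2 1.42.0, other filters and scalings, and leaving out each library were alternatives. Total counts per library were 859280 to 1779042, and intervals cover counting error only. Cells were thinned to 2500 counts with a fixed seed. Cell groups were cut by 22 immediate early genes, or by 10 EC against 20 fibroblast and VSMC markers. The text names all 10 members, Hsf1, Hsf2, chaperones of the wider lists past a test (up to 5 per direction, and some of those below an unadjusted p of 0.05), the 10 genes most like each sum (mean thinned count of at least 0.2), Jag1, Fos, Jun, Egr1, Atf3 and the markers. Manf, Hspb6, Clpb, Pdia4 and Rn45s were added after values were seen. Members and lists were chosen with earlier results of these data known. The fits were tested on simulated data, drawn with the same dispersion for every gene, which was not estimated from these libraries. With 100 genes changed at each size in the comparison of labels, 12% were called at a log2 fold change of 1 and 72% at 2, over 9455 genes. Between immediate early groups these shares were 42% and 84%, and between marker groups 23% and 66%. Unchanged genes called numbered 5 between immediate early groups and 0 in the other fits. The shares hold for that setting and need not hold for the real counts. Python 3.11.15 and matplotlib 3.10.9 were used for the rest.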

Additional observations from a re-analysis of the deposited data

How the results depend on the processing

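No paired analysis was possible because the replicate numbers of the labels do not tie libraries across labels. In the comparisons between cells of the same libraries, fits without library as a block passed 13 genes and 0 members between immediate early groups and 380 genes and 1 member between marker groups. In the comparison of labels, the genes passing numbered 2 with DESeq2, 127 with no filter on low counts and 0 to 417 with a library left out, and the members 0 to 1. With a library left out, the log2 fold changes were -0.51 to 0.64 for Hspa1a, -0.56 to 0.65 for Hspa1b, -0.26 to 0.53 for Hsph1, -0.26 to 0.21 for Hsp90aa1 and -0.37 to 0.39 for Hspd1. In thinned cells they were -0.12 for Hspa1a, -0.20 for Hspa1b, -0.19 for Dnajb1, -0.22 for Hsph1 and -0.14 for Hspe1. Hsp90aa1 was at 0.09 in cells with more than 1500 genes, and Hspa1b at 0.00 in EC marker cells. The ratio of inducible to constitutive counts kept its direction under 11 alternatives (0.03 to 0.40).

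Between cells high and low in immediate early genes, 28 genes passed with no filter, 35 with unthinned counts and 36 with Atf3, Ier5, Dusp1 and Jun left out of the ranking, and 15 to 25 with a library left out. Hspe1 was at 0.31 unthinned, and Hsp90aa1 at 0.17 in the reduced ranking. With a library left out Hspa8 was at -0.08 to 0.08 and Hsp90aa1 at -0.18 to 0.06. No member passed in any of the 12 alternatives.

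Between marker groups, 620 genes passed with no filter, 656 at 2 times the marker counts, 116 with fibroblast marker cells and 78 to 526 with a library left out (members 0 to 1). Fibroblast marker cells passed 0 members, with Dnajb1 at -2.01, Hspa1b at -1.70, Hspd1 at -0.93, Hspa1a at -0.47 and Hspb1 at -0.27, and VSMC marker cells had Dnajb1 at 0.59, Hspa8 at -0.02, Hsp90ab1 at -0.06 and Hspd1 at 0.41. With no filter, Hspa1b was at -0.16 and Hspa8 and Hsp90ab1 at 0.00. At 2 times the marker counts Hsp90ab1 was at -0.01. With a library left out, Hspa1b was at -0.47 to 0.39, Dnajb1 at -1.10 to 0.40, Hsp90ab1 at 0.00 to 0.37 and Hspd1 at -0.28 to 0.00. The cause of these changes was not tested. The share of cells with Hspa1a or Hspa1b was 17.7% over libraries and 25.4% with cells thinned to 4000 counts. With 13 to 75 counts per library, the strictly inducible genes are limited by depth.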
